A study of Mus musculus with 9 samples.

Results

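The genes described here are 10 core genes of the epithelial to mesenchymal transition (EMT): the transcription factors Zeb1, Zeb2, Snai1, Snai2, Twist1, Twist2 and Prrx1, the cadherins Cdh1 and Cdh2, and the intermediate filament gene Vim. They were chosen by symbol, and a gene was represented by the probe set that names it alone and has the highest mean over the arrays. Of the 10 genes, 9 had such a probe set, among 22180 genes in all. Zeb2 did not, because both probe sets that list it also list another gene, so no value is given for it. All 9 genes lay above the 30th percentile of the array on all 9 arrays and were tested among 17478 genes.

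RNA of 9 female FVB mice, 3 in each of 3 groups, was hybridised to Affymetrix Mouse Gene 2.0 ST arrays, and no mouse gave more than 1 array. Normal mammary glands came from wild-type littermates aged 533 to 556 days. Tumours came from MMTV-Wnt1 mice (Wnt1+/-), in which a mammary tumour virus promoter drives the secreted signalling protein Wnt1, and were recorded as non-metastatic (mice aged 222 to 354 days) or metastatic (281 to 300 days). From 6 weeks of age every mouse drank 6% sucrose with 200 ug/ml doxycycline, and tumours were collected at 20 mm. The labels name no transgene under tetracycline control. The labels do not say where metastases were found, and the metastatic arrays hold the mammary tumour itself.

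The median log2 value per array ranged from 5.80 to 5.94. The epithelial marker Epcam measured 9.81 (normal gland 2) to 11.07 in normal glands and 11.36 to 11.85 in tumours. Normal gland 2 stood apart. Averaged over 5 skeletal muscle markers it reached 3.72, where normal glands 1 and 3 had -1.01 and -0.45, and over 5 markers of differentiated epidermis it reached 4.53, where they had -0.83 and -0.73. Marker averages here are of log2 values from which the 9-array mean of the gene was subtracted. Calls against normal gland that are lost without this array are given below. Age and tumour status cannot be told apart in those comparisons, and both tumour groups are set against the same 3 normal glands.

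In EMT, epithelial cells lose E-cadherin (Cdh1), the calcium-dependent adhesion molecule of adherens junctions, and gain mesenchymal traits such as N-cadherin (Cdh2) and vimentin (Vim). The exchange of Cdh1 for Cdh2 is called the cadherin switch. ZEB and Snail proteins are zinc-finger repressors that bind E-boxes in the Cdh1 promoter, Twist proteins are basic helix-loop-helix factors, and Prrx1 is a homeobox factor of mesenchyme. In the mammary gland these factors are also genes of the normal stroma, and Snai2 (Slug) is known as a factor of basal epithelial cells. In tissue pieces such as these, fewer cells of a type and less RNA per cell cannot be told apart.

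Against normal gland, E-cadherin was higher and several EMT transcription factors were lower in the tumours of both groups. Cdh1 rose by 1.15 on the log2 scale over both tumour groups (SE 0.17, adjusted p = 0.0043), which is 2.22-fold. Zeb1 fell by 1.60 (SE 0.30, adjusted p = 0.0091), Prrx1 by 1.36 (SE 0.38, adjusted p = 0.035) and Twist1 by 1.31 (SE 0.23, adjusted p = 0.0076). Snai1, Snai2, Twist2, Cdh2 and Vim did not pass the threshold, an adjusted p under 0.05 in a limma fit over all 17478 genes. Of the 9 genes 1 rose and 3 fell, where 13.6% of all genes tested rose and 9.13% fell. The median of the 9 log2 changes was -0.65, beside 0.04 over all genes tested, and -0.40 without normal gland 2. Tested by tumour group, Cdh1, Zeb1 and Twist1 passed in each, and Prrx1 passed in non-metastatic tumours only.

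**Figure D1:**
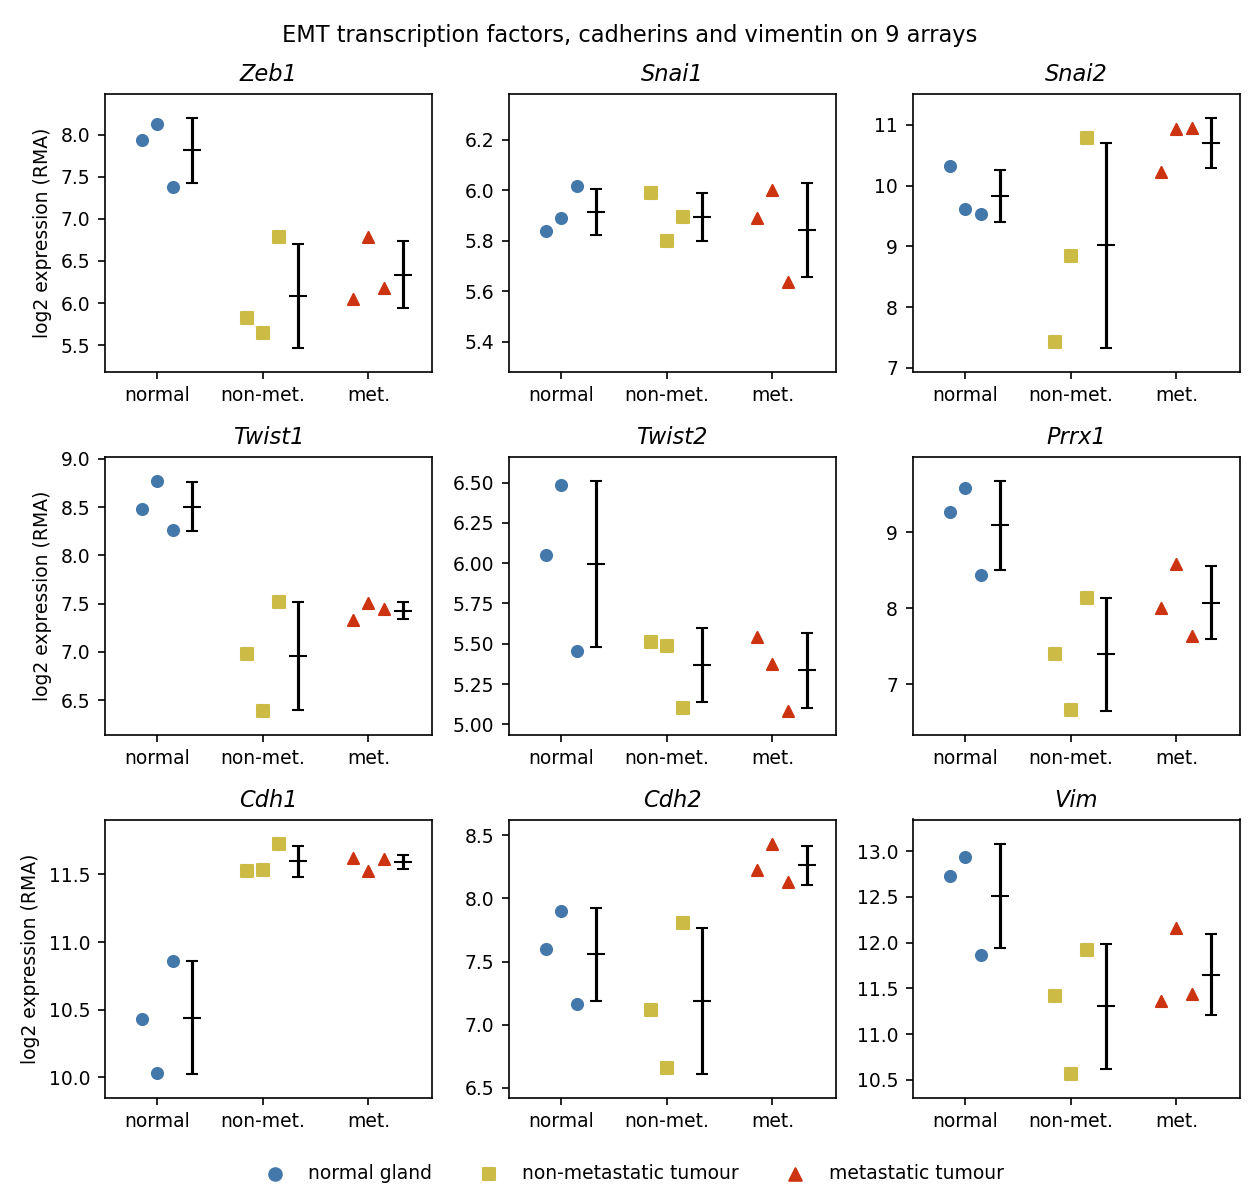
Log2 expression (RMA values, vertical axis) of the 9 measured genes on each of 9 arrays, by group, with the mean and SD of 3 mice as a black bar beside the points; the vertical scale differs between panels. Cdh1 was higher in all 6 tumours than in the 3 normal glands, Zeb1 and Twist1 were lower in all 6, and Cdh2 was higher in the 3 metastatic tumours than on the other 6 arrays.

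Zeb1 (probe set 17348202), a zinc-finger homeobox repressor of epithelial genes, measured 7.94, 8.12 and 7.38 in normal glands 1, 2 and 3, and values below keep this order of mice within each group. Its non-metastatic values were 5.82, 5.64 and 6.79, and its metastatic values 6.05, 6.79 and 6.18. Every tumour lay below every normal gland, while the tumour groups overlapped. Zeb1 fell by 1.73 in non-metastatic tumours (SE 0.34, adjusted p = 0.015) and fell by 1.48 in metastatic tumours (SE 0.34, adjusted p = 0.031). Without normal gland 2 these falls were 1.57 (adjusted p = 0.051) and 1.32 (adjusted p = 0.098), and without normal gland 1 they were 1.67 (adjusted p = 0.054) and 1.41 (adjusted p = 0.091). The fall in metastatic tumours also missed the threshold without metastatic tumour 1 (adjusted p = 0.10) or 3 (adjusted p = 0.097). Over both tumour groups together the adjusted p of Zeb1 was 0.042 or less with each array left out in turn.

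MicroRNAs of the miR-200 family are known repressors of Zeb1 and Zeb2, and miR-205 is a basal epithelial microRNA with the same targets. The array carried probe sets for their precursors, not the mature forms. The mature sequences are shown because their seeds (bases 2 to 8, in capitals), which pair with target transcripts, divide the family into the groups that share AAUACUG or AACACUG. They are from RefSeq, GRCm38.p6, minus strand, 5′ to 3′:
miR-200b-3p (chr4:156055685-156055706): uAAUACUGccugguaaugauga
miR-200c-3p (chr6:124718324-124718346): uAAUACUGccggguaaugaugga
miR-200a-3p (chr4:156054911-156054932): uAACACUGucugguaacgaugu
miR-141-3p (chr6:124717917-124717938): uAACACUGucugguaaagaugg
miR-205-5p (chr1:193507503-193507524): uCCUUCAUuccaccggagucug

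Of 6 precursors on the list, 5 had a probe set of their own and 3 were bright enough to be tested. In the limma fit of all 9 arrays without array weights, 0 of these 3 passed the threshold in any comparison, and 0 had an unadjusted p under 0.05. Mir200a averaged 6.48 ± 0.12 (normal), 6.55 ± 0.36 (non-metastatic) and 6.64 ± 0.17 (metastatic; SD, n = 3 each). Mir200b averaged 6.51, 6.36 and 6.67 in the same order. Mir205 averaged 6.40, 6.64 and 7.06, a difference of 0.66 between metastatic tumours and normal glands (SE 0.34, adjusted p = 0.24). Precursors Mir141 and Mir200c were left out by the filter on low values. Mir205 passed over both tumour groups without non-metastatic tumour 1, at 0.65 (SE 0.17, adjusted p = 0.035), and with array weights, at 0.76 (SE 0.21, adjusted p = 0.019). With array weights it also passed in metastatic tumours against normal gland, at 0.99 (SE 0.23, adjusted p = 0.012).

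Twist1 (probe set 17274959), a helix-loop-helix factor of mesoderm and neural crest, measured 8.48, 8.77 and 8.27 in normal glands. Among tumours, the non-metastatic ones had 6.97, 6.39 and 7.51 and the metastatic ones 7.33, 7.50 and 7.44. All tumours lay below all normal glands, and the metastatic tumours lay close together (SD 0.09, against 0.56 in non-metastatic tumours, n = 3 each). Twist1 fell by 1.54 in non-metastatic tumours (SE 0.26, adjusted p = 0.010), or 2.92-fold, and by 1.08 in metastatic tumours (SE 0.26, adjusted p = 0.035), or 2.11-fold. The call in non-metastatic tumours held with each array left out (adjusted p at most 0.038). The call in metastatic tumours was lost without normal gland 1 (0.090), normal gland 2 (0.11), non-metastatic tumour 1 (0.051) or metastatic tumour 1, 2 or 3 (0.11, 0.076 and 0.096).

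Twist2 (probe set 17215799), its closest relative and a factor of dermal mesenchyme, measured 6.05, 6.48 and 5.46 in normal glands. Its non-metastatic values were 5.51, 5.49 and 5.10, and its metastatic values 5.54, 5.38 and 5.09. Normal gland 3 lay within the range of the tumours, and Twist2 differed from normal gland by -0.65 over both tumour groups without passing the threshold (SE 0.22, adjusted p = 0.072). It passed without normal gland 3, at -0.92 (adjusted p = 0.014), and with array weights, at -0.70 (adjusted p = 0.0048).

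Prrx1 (probe set 17229096), the homeobox factor, measured 9.26, 9.58 and 8.45 in normal glands. Non-metastatic tumours measured 7.39, 6.66 and 8.14, and metastatic tumours 8.01, 8.58 and 7.64. Non-metastatic tumours all lay below the normal glands, whereas metastatic tumour 2 lay above normal gland 3. Prrx1 fell by 1.70 in non-metastatic tumours (SE 0.43, adjusted p = 0.032), and in metastatic tumours its difference of -1.02 did not pass (SE 0.43, adjusted p = 0.16). The fall in non-metastatic tumours missed the threshold without normal gland 1 (0.095), normal gland 2 (0.10), non-metastatic tumour 1 (0.071), non-metastatic tumour 2 (0.090) or metastatic tumour 1 (0.052), and when the fit held just these 2 groups (0.066). The fall over both tumour groups was likewise lost without any of 6 of the 9 arrays, with adjusted p up to 0.14 (without normal gland 2).

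Snai1 and Snai2, zinc-finger repressors of the Snail family, differed in their spread. Snai1 (probe set 17379922) stayed between 5.64 and 6.01 on all 9 arrays, near the array medians of 5.80 to 5.94. Whether a signal this low hides a change was not tested. Its group means were 5.91 ± 0.09 (normal), 5.89 ± 0.09 (non-metastatic) and 5.84 ± 0.19 (metastatic; SD, n = 3 each). The 95% interval of its difference between metastatic and non-metastatic tumours ran from -0.33 to 0.22, and its difference from normal gland over both tumour groups was -0.05 (SE 0.10, adjusted p = 0.79).

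Snai2 (probe set 17323192) had the widest spread of the 9 genes, with an SD of 1.15 over the 9 arrays. It measured 10.32, 9.61 and 9.54 in normal glands and 10.22, 10.93 and 10.95 in metastatic tumours. The non-metastatic tumours lay far apart, at 7.43, 8.84 and 10.79: tumours 1 and 2 were lower than any other array, and tumour 3 lay within the range of the metastatic group. The difference between the tumour groups was 1.68 (SE 0.73, 95% interval 0.01 to 3.35, adjusted p = 0.88). It was 2.56 without non-metastatic tumour 3 (adjusted p = 0.096) and 0.88 without non-metastatic tumour 1 (adjusted p = 0.98). Against normal gland, Snai2 differed by -0.80 in non-metastatic tumours (SE 0.73, adjusted p = 0.48) and by 0.88 in metastatic tumours (SE 0.73, adjusted p = 0.46). Without non-metastatic tumour 3 the first of these differences was -1.69 and passed (adjusted p = 0.049).

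The bases upstream of 3 of these genes are shown to set a factor that fell (Twist1) beside a factor with no detectable difference (Snai1) and the mesenchymal filament gene (Vim). Each run is the 250 bases before the annotated start in RefSeq, GRCm38.p6, plus strand, 5′ to 3′. Capitals mark matches on either strand to the E-box CAGGTG (reverse CACCTG), to which Snail and ZEB proteins bind, to the TCF/LEF core CTTTGA (reverse TCAAAG) of Wnt signalling, and to the TATA-box core TATAAA (reverse TTTATA):
Snai1 (chr2:167537945-167538194): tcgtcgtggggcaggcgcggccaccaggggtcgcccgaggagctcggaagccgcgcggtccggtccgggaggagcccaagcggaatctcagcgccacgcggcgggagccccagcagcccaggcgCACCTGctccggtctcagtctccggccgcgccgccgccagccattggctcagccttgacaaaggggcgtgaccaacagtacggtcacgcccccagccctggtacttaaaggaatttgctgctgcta
Twist1 (chr12:33957421-33957670): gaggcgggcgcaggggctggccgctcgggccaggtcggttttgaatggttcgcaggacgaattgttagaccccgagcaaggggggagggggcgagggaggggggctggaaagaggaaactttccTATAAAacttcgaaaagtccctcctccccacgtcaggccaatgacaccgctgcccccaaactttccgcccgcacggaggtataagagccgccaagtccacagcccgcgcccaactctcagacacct
Vim (chr2:13574061-13574310): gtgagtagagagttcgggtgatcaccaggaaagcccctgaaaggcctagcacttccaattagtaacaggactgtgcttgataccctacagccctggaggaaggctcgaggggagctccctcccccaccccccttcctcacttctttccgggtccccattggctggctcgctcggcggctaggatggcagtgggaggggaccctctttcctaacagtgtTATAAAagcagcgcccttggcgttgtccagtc

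The Snai1 window held 1 E-box, starting 126 bases before the start, and the Twist1 and Vim windows each held 1 TATAAA, starting 126 and 32 bases before it. None of the 3 windows, and not the windows of Prrx1 or Twist2, held CTTTGA. Of 32851 promoter windows of this length in the table, 17.2% held CAGGTG, 13.8% CTTTGA and 12.4% TATAAA. These matches describe letters in a window and are not binding sites.

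Cdh1 (probe set 17505148) measured 10.43, 10.03 and 10.86 in normal glands. Among tumours, the non-metastatic ones had 11.53, 11.53 and 11.73 and the metastatic ones 11.62, 11.53 and 11.62. The 6 tumours lay between 11.53 and 11.73, above every normal gland. The rise was 1.15 in non-metastatic tumours (SE 0.19, adjusted p = 0.0094) and 1.15 in metastatic tumours (SE 0.19, adjusted p = 0.012), 2.23-fold and 2.21-fold. Both calls held with each array left out in turn, with adjusted p at most 0.048. Between the tumour groups Cdh1 differed by -0.01, with a 95% interval from -0.45 to 0.43. A second probe set that names Cdh1 (17512677) rose as well, from 6.42 ± 0.69 in normal glands to 7.96 ± 0.22 in non-metastatic and 7.70 ± 0.14 in metastatic tumours (adjusted p = 0.016 and 0.034).

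Cdh2 (probe set 17352884) measured 7.60, 7.90 and 7.17 in normal glands. Its non-metastatic values were 7.12, 6.65 and 7.80, and its metastatic values 8.23, 8.43 and 8.13. The 3 metastatic tumours lay above the other 6 arrays, and Cdh2 was the only gene of the 9 without overlap between the tumour groups. Of all genes tested, 4.41% were higher without overlap in that comparison. The difference between the tumour groups was 1.07 (SE 0.30, 95% interval 0.40 to 1.75), which is 2.11-fold, with an unadjusted p of 0.0064 and an adjusted p of 0.88. Against normal gland it was 0.71 in metastatic tumours (SE 0.30, adjusted p = 0.15) and -0.37 in non-metastatic tumours (SE 0.30, adjusted p = 0.42). A second probe set that names Cdh2 (17415231) gave 0.67 between the tumour groups (SE 0.24, adjusted p = 0.88), with means of 6.85 ± 0.09 (metastatic), 6.19 ± 0.53 (non-metastatic) and 6.24 ± 0.14 (normal).

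**Figure D2:**
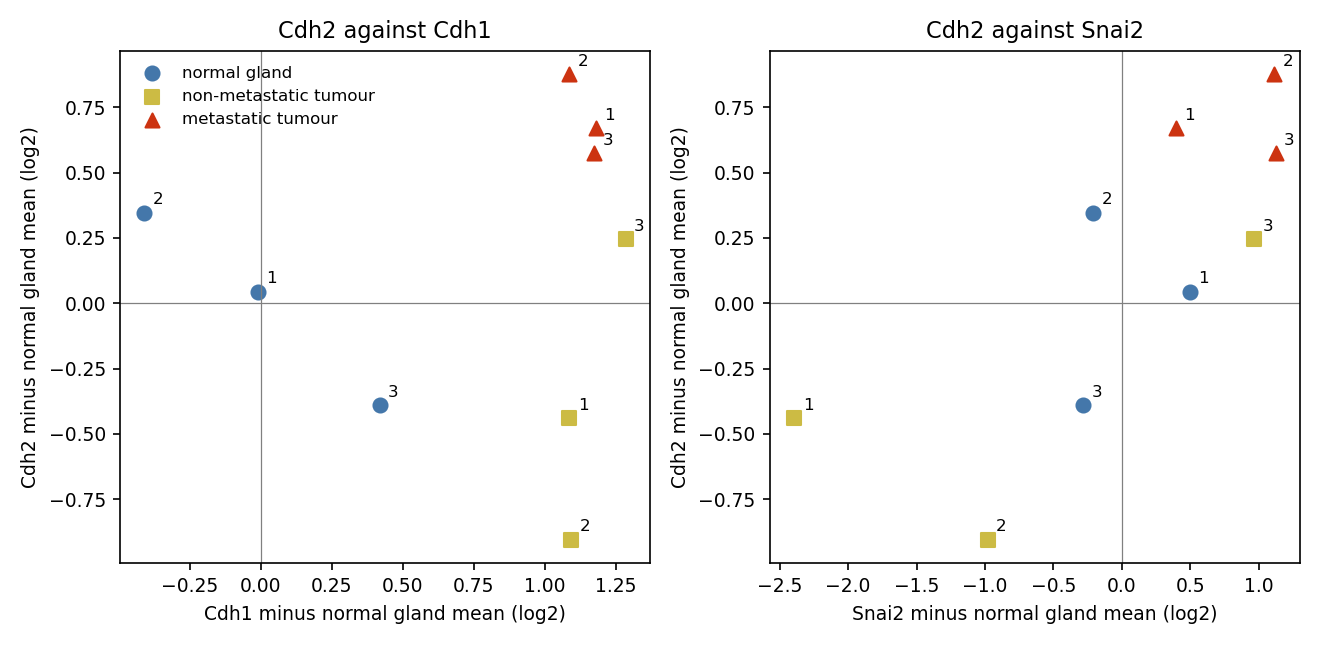
Log2 value of Cdh2 minus its normal gland mean (vertical axis) against the same quantity for Cdh1 (left) and Snai2 (right) on 9 arrays, numbered by replicate. On the left all 6 tumours sit between 1.09 and 1.28 for Cdh1, while Cdh2 spreads from -0.90 to 0.88 among them, and on the right non-metastatic tumours 1 and 2 are low for both genes.

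The cadherin switch would place tumours low for Cdh1 and high for Cdh2. No tumour lay there: relative to the normal gland mean, Cdh1 was 1.09 to 1.28 higher in every tumour. Cdh2 was 0.67, 0.88 and 0.58 higher in metastatic tumours 1, 2 and 3, and non-metastatic tumours 1, 2 and 3 had -0.44, -0.90 and 0.24. Metastatic tumours thus had a higher mean of N-cadherin beside raised E-cadherin, with the Cdh2 difference short of the threshold without array weights. With array weights in limma, Cdh2 passed in metastatic tumours against normal gland (adjusted p = 0.023). Between the tumour groups Cdh2 passed in no alternative (limma adjusted p of 0.092 or more). These are values of whole tissue pieces that differed in their fat markers. White adipocyte markers averaged 2.95 to 4.03 in normal glands, -2.59 to -0.59 in non-metastatic and -2.42 to -1.44 in metastatic tumours. Where the share of epithelium may differ, such values cannot show Cdh1 per epithelial cell. A loss of Cdh1 within tumour cells was not tested.

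Vim (probe set 17367055), the intermediate filament protein of mesenchymal cells, measured 12.73, 12.94 and 11.87 in normal glands. Among tumours, the non-metastatic ones had 11.41, 10.57 and 11.92 and the metastatic ones 11.36, 12.16 and 11.43. Non-metastatic tumour 3 and metastatic tumour 2 lay above normal gland 3. The difference from normal gland was -1.21 in non-metastatic tumours (SE 0.41, adjusted p = 0.074), -0.86 in metastatic tumours (SE 0.41, adjusted p = 0.20) and -1.04 over both (SE 0.36, adjusted p = 0.070). Without normal gland 3 the difference over both was -1.36 and passed (adjusted p = 0.037), as it did without non-metastatic tumour 3 (-1.19, adjusted p = 0.044). A second probe set that names Vim (17548193) gave -1.01 over both groups (SE 0.32, adjusted p = 0.054).

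**Figure D3:**
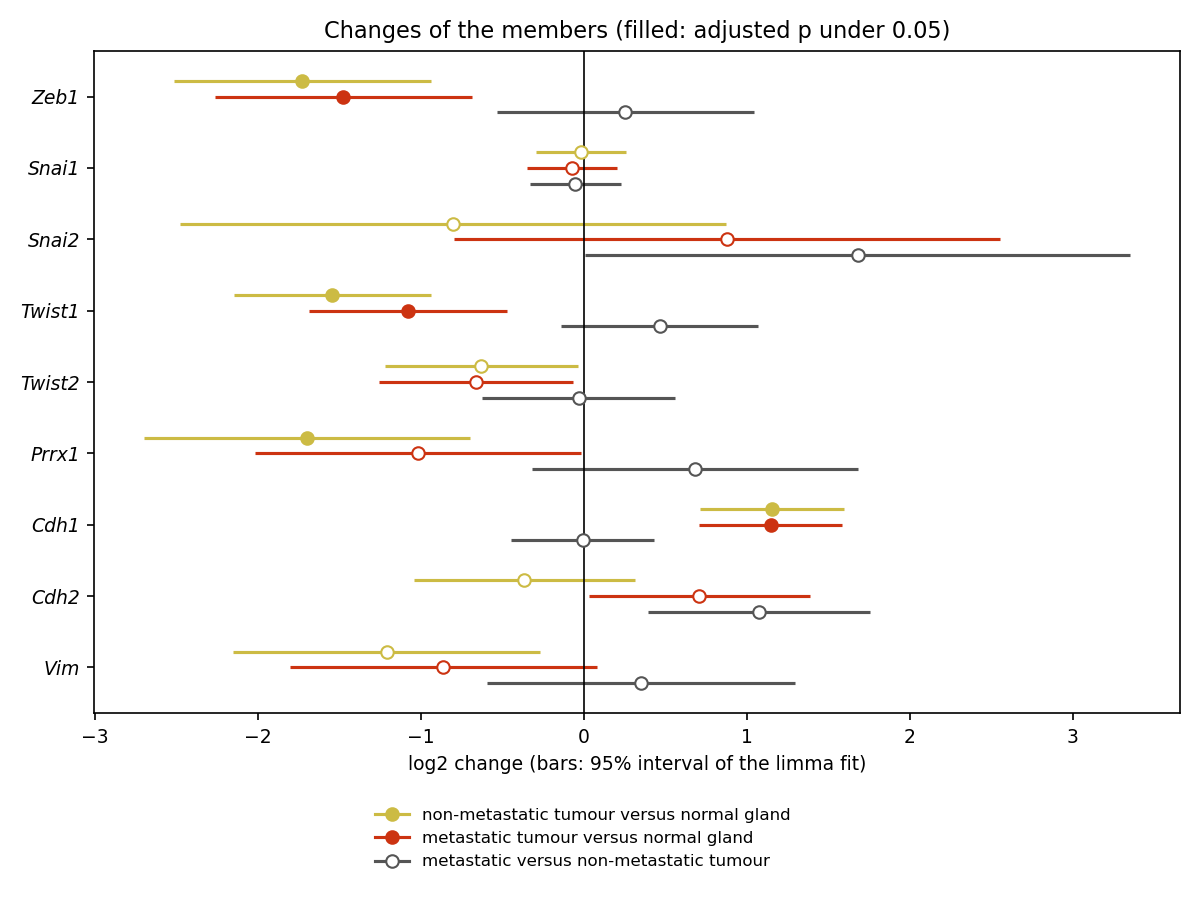
Log2 change (horizontal axis) of the 9 genes in 3 comparisons, with the 95% interval of the limma fit as a bar and filled points where the adjusted p was under 0.05. Filled points are Zeb1, Twist1 and Prrx1 below 0 and Cdh1 above 0 against normal gland, and no point of the comparison between the tumour groups is filled.

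Counted by comparison, 1 gene rose (Cdh1) and 3 fell (Zeb1, Twist1, Prrx1) in non-metastatic tumours against normal gland, where 11.2% of all genes tested rose and 7.6% fell. In metastatic tumours 1 rose (Cdh1) and 2 fell (Zeb1, Twist1), where 7.35% rose and 6.0% fell. On no overlap with the normal glands, 1 gene lay higher and 3 lower in non-metastatic tumours, against 21.9% and 14.3% of all genes. In metastatic tumours 2 lay higher (Cdh1, Cdh2) and 2 lower, against 23.2% and 15.3%, and over both groups 1 lay higher and 2 lower, against 15.7% and 10.3%. Without normal gland 2 only Cdh1 and Twist1 passed in non-metastatic tumours and only Cdh1 in metastatic tumours.

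Between metastatic and non-metastatic tumours, the comparison in the series title, 0 of the 9 genes passed in limma, where 0.00572% of all genes tested did. An unadjusted p under 0.05 was found for Cdh2 and Snai2, 2 of the 9, and for 5.06% of all genes tested. Differences not yet given were 0.25 for Zeb1 (95% interval -0.54 to 1.04), 0.46 for Twist1 (-0.14 to 1.07), 0.68 for Prrx1 (-0.32 to 1.68) and 0.35 for Vim (-0.59 to 1.29). For Twist2 it was -0.03 (-0.63 to 0.56). Intervals of this width include differences in either direction, so a missed threshold does not show that the tumour groups were alike. With arrays left out in turn, Zeb1 ran from 0.029 (without metastatic tumour 2) to 0.60, Twist1 from 0.18 to 0.74, Prrx1 from 0.31 to 1.05 and Vim from -0.018 to 0.66. For these 4 genes the highest value was that without non-metastatic tumour 3 and, except for Zeb1, the lowest was that without non-metastatic tumour 2.

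Further EMT-linked transcription factors did not follow a common direction, whereas the epithelial regulators that passed all rose. Of 16 further EMT-linked transcription factors 14 were tested, and against normal gland over both tumour groups 1 rose, 3 fell and 10 did not pass (median 0.21, beside 0.04 over all genes). This list also holds Id1, Id2 and Id3, which inhibit helix-loop-helix factors, so a fall in it is not always that of an EMT promoter. The counts of this and the following lists stand beside the 13.6% of all genes that rose and the 9.13% that fell. Foxq1, a forkhead factor, rose by 2.11 (SE 0.58, adjusted p = 0.035), with metastatic tumours at 10.54, 9.69 and 7.52. A second probe set that names Foxq1 (17291635) overlapped between the groups. It measured 6.11, 5.70 and 6.01 in normal glands and 5.97 to 6.68 in tumours. Id3, an inhibitor of helix-loop-helix factors, fell by 1.30 (SE 0.27, adjusted p = 0.014), and Klf8 and Gsc fell by 0.51 and 0.44. Of 13 regulators of the epithelial state tested, 5 rose, 0 fell and 8 did not pass, with a median of 0.86 (0.58 without normal gland 2). Among them were Elf3, an epithelial ETS factor, at 1.76 (SE 0.30, adjusted p = 0.0073), Esrp1 and Esrp2, epithelial splicing regulators, at 0.89 and 0.88, and Grhl2, a grainyhead factor that sustains Cdh1, at 0.86 (SE 0.23, adjusted p = 0.029).

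Of 18 epithelial junction and surface genes 17 were tested, and 6 rose, 0 fell and 11 did not pass (median 0.97, and 0.55 without normal gland 2). Cldn4, a tight junction claudin, rose by 1.23 (SE 0.20, adjusted p = 0.0067), Marveld2, which encodes tricellulin, by 1.21, Epcam by 1.04 and Rab25 by 0.98. Among other classical cadherins and catenins 12 were tested, of which 1 rose: Ctnnd1, the p120 catenin that holds cadherins at the membrane, at 0.38 (SE 0.09, adjusted p = 0.019). P-cadherin (Cdh3), named here as the third classical cadherin of mammary epithelium, differed by 1.44 without passing (SE 0.49, adjusted p = 0.069). Of 14 genes grouped as partners and co-repressors of Snail and ZEB proteins 5 rose and 0 fell (median 0.35). This list is mixed and also holds genes that are not co-repressors, such as Fbxw7 and Gsk3b. Those that rose included the Polycomb methyltransferase Ezh2 at 1.09 (SE 0.20, adjusted p = 0.0084), the demethylase Kdm1a at 0.88, the ZEB co-repressor Ctbp2 at 0.75 and the deacetylase Hdac2 at 0.68. Fbxw7 rose as well, by 0.61 (SE 0.19, adjusted p = 0.048).

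Of 20 mesenchymal effector genes on the list 16 were tested, and 1 rose, 7 fell and 8 did not pass (median -1.02). Fn1, which encodes fibronectin, fell by 1.88 (SE 0.50, adjusted p = 0.030), Fap, a fibroblast surface protease, by 1.72 (SE 0.37, adjusted p = 0.015), Lgals1, a galectin, by 1.67 and the matrix metalloprotease Mmp3 by 1.49. The gene that rose was Itgb1, a fibronectin-binding integrin subunit, by 0.42 (SE 0.11, adjusted p = 0.027), named here after its value was seen. Of 17 inducers and receptors of EMT signalling tested, 0 rose and 2 fell: Hgf, the ligand of Met, by 1.12 (SE 0.29, adjusted p = 0.027), and Tgfbr2, a TGF-beta receptor, by 0.91 (SE 0.27, adjusted p = 0.048). The median of that list was 0.13, and its share of fallen genes lay near that of all genes. Without normal gland 2 fewer genes of these lists passed: 1 of 14 EMT-linked factors (Id3, lower), 2 of 13 epithelial regulators, 4 of 17 junction genes and 3 of 14 partners (all higher), 1 of 16 mesenchymal effectors (lower) and 0 of 17 inducers. Among the genes named above, Id3, Elf3, Cldn4, Epcam, Ezh2, Kdm1a, Ctbp2 and Lgals1 still passed without it.

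Between the tumour groups 0 members of these lists passed in limma. Foxa1, a luminal pioneer factor, differed by 3.03 (SE 0.77, adjusted p = 0.88). Of the 13 epithelial regulators tested, 6 had a positive and 7 a negative difference (median -0.0059). After Foxa1 the largest were Ovol1 at -0.75 (SE 0.42), Gata3 at -0.62 (SE 0.75) and Elf5 at -0.46 (SE 0.88), each with a lower mean in metastatic tumours. For Gata3 and Elf5 the lower mean rested on metastatic tumour 2, at 7.11 and 8.89. Metastatic tumour 3 had the highest tumour value of both genes, at 10.63 and 10.62. Among EMT-linked factors the largest were 1.49 for Tbx3 (SE 0.54), 0.78 for Foxq1 (SE 0.67), 0.70 for Sox9 (SE 0.40) and 0.68 for Tcf4 (SE 0.45). Of the 17 junction genes 14 had a negative difference (median -0.15, beside -0.02 over all genes tested). With arrays left out in turn that median ran from -0.30 to 0.024. Averaged over this list, metastatic tumours 1, 2 and 3 had 0.54, -0.22 and 0.28, and non-metastatic tumours 0.43, 0.50 and 0.10. Dsp, a desmosomal gene, was at 1.22 (SE 0.91), but Muc1 at -0.87 (SE 1.05), Cldn1 at -0.79 (SE 0.56) and Cldn7 at -0.45 (SE 0.63). Muc1 was low in metastatic tumour 2 (6.63), beside 10.32 and 10.13 in metastatic tumours 1 and 3. Mesenchymal effectors were divided, with Mmp2 at 1.05 (SE 0.59) and Sparc at 0.62 (SE 0.30), and Tgfbi at -0.84 (SE 0.45) and Tnc at -0.67 (SE 0.56). Other cadherins were Cdh3 at 0.93 (SE 0.57), Cdh10 at 0.87 (SE 0.89), Cdh5 at 0.51 (SE 0.35) and Cdh6 at -0.45 (SE 0.21). Inducers were Hgf at 0.92 (SE 0.33), Pdgfb at 0.70 (SE 0.28), Pdgfa at 0.54 (SE 0.28) and Jag1 at 0.51 (SE 0.47), and partners Lats2 at 0.52 (SE 0.25), Ajuba at 0.34 (SE 0.37), Ezh2 at -0.21 (SE 0.23) and Hdac1 at -0.20 (SE 0.16). Each of these had an adjusted p of 0.88 or more.

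Marker lists of other cell types moved with several of these genes. For 8 fibroblast markers, all measured, the normal glands averaged 1.28 to 1.31, the non-metastatic tumours -2.61 to 0.50 and the metastatic tumours -1.32 to 0.17. Of these 8, 2 passed over both tumour groups: the matrix protein gene Dpt fell by 4.50 (SE 0.80, adjusted p = 0.0080) and Dcn, which encodes decorin, fell by 1.64 (SE 0.48, adjusted p = 0.043), the second not passing without normal gland 2 (-1.56, adjusted p = 0.13). For endothelial markers (6 of 6 measured) the same groups averaged 0.60 to 1.02, -1.06 to 0.04 and -0.48 to 0.28. Of these 6, 3 fell: the receptors Tek by 2.00 and Kdr by 1.54, and the secreted factor Egfl7 by 1.25, of which Tek did not pass without normal gland 2 (-1.78, adjusted p = 0.056). White adipocyte markers (5 of 5) averaged 2.95 to 4.03, -2.59 to -0.59 and -2.42 to -1.44, and all 5 fell with and without normal gland 2, among them Lep, which encodes leptin, by 5.94 (SE 0.45), Cidec by 5.80 (SE 0.47), Fabp4 by 5.40 (SE 0.81) while Adipoq fell by 5.19 (SE 0.47). Macrophage markers (6 of 6) averaged 0.01 to 0.93, -0.95 to 0.34 and -0.29 to 0.05, with 0 of 6 past the threshold. Non-metastatic tumour 2 was the lowest array for fibroblast, endothelial, macrophage and adipocyte markers, and also for Zeb1, Twist1, Prrx1, Cdh2 and Vim. Among the remaining lists, 2 of 4 T cell markers measured fell (Cd3g by 1.25 and Cd4 by 0.78), 1 of 5 pericyte markers fell (Cspg4 by 0.97), 1 of 2 Schwann cell markers rose (Sox10 by 1.87), and 0 of 5 skeletal muscle and 0 of 5 epidermis markers passed. Without normal gland 2, Cd3g (-1.36, adjusted p = 0.056), Cd4 (-0.81, adjusted p = 0.12) and Cspg4 (-0.75, adjusted p = 0.11) did not pass. Sox10 passed at 1.03 (adjusted p = 0.012) and the T cell marker Cd8a at -0.92 (adjusted p = 0.042) without that array. The median of the T cell list was -0.86 with normal gland 2 and -1.06 without it. Sox10 measured 9.19, 6.72 and 9.27 in normal glands and 10.05 to 10.47 in tumours. The other Schwann cell marker, S100b, had a negative difference, at -0.38 without normal gland 2 (SE 0.31, adjusted p = 0.47). These 2 markers thus went in opposite directions, and Sox10, like the epithelial marker Epcam, had its lowest value in normal gland 2. Whether the rise of Sox10 came from Schwann cells was not tested. The part of these cell types in the falls of Zeb1, Twist1 and Prrx1 was not tested.

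**Figure D4:**
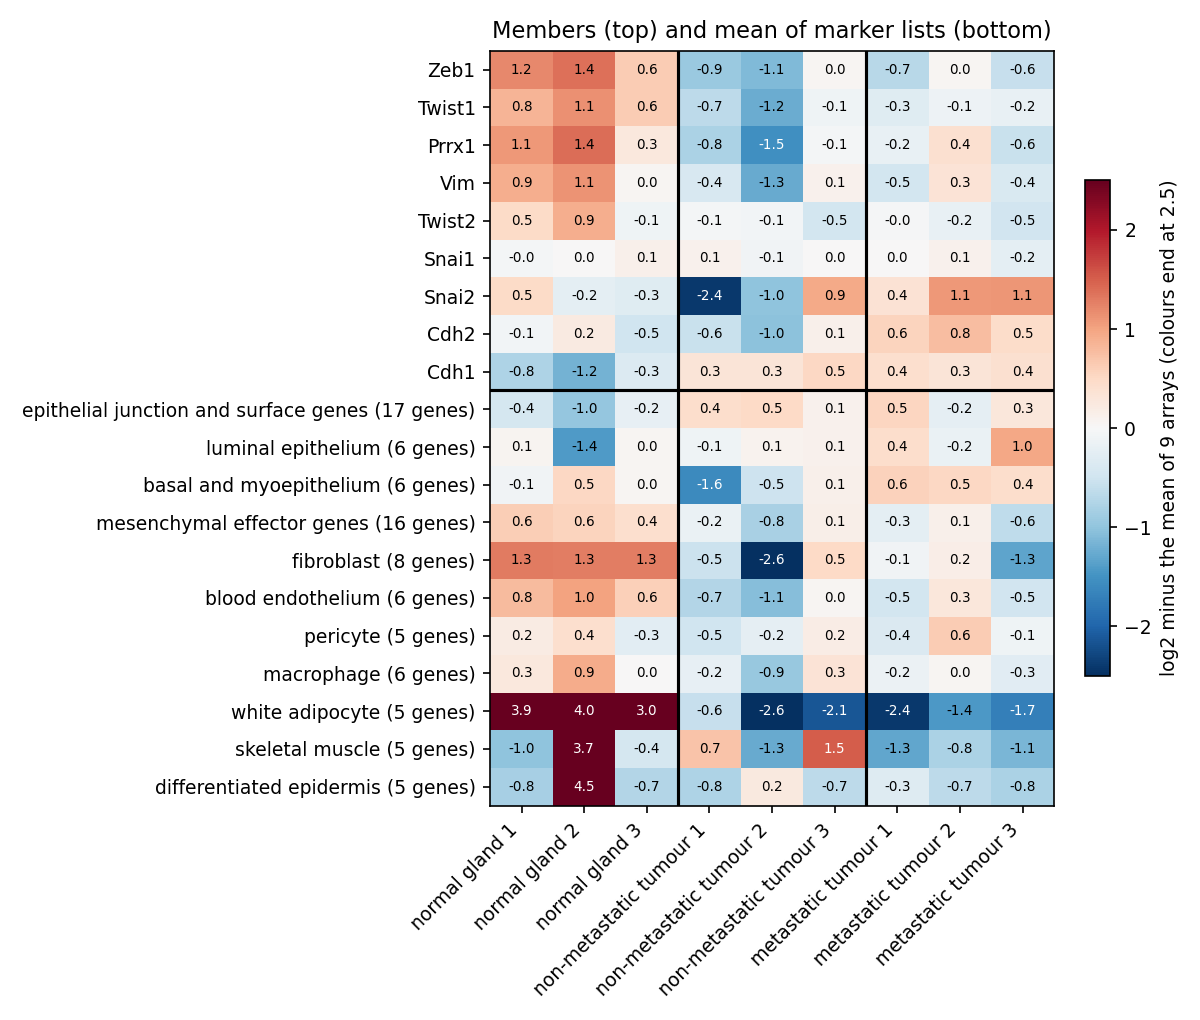
Log2 value minus the mean of the 9 arrays for each gene (top) and for the mean of marker lists (bottom), by array (columns), with colours ending at 2.5. Zeb1, Twist1, Prrx1 and the fibroblast and endothelial lists lie above 0 in all 3 normal glands and have their lowest value in non-metastatic tumour 2, and normal gland 2 stands out for muscle and epidermis markers.

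Basal and myoepithelial markers (6 of 7 measured) are given here beside Snai2 and Cdh2. Non-metastatic tumours 1, 2 and 3 averaged -1.60, -0.51 and 0.12 for this list, the metastatic tumours 0.44 to 0.58, and the normal glands -0.09 to 0.51. Non-metastatic tumour 1, the lowest array for Snai2, was also the lowest for this list, whereas Cdh2 was lowest in non-metastatic tumour 2. Between the tumour groups 6 of 6 had a positive difference and 0 passed, with Myh11, a smooth muscle myosin of myoepithelium, at 2.59 (SE 0.48, adjusted p = 0.62) and Acta2 at 1.59 (SE 0.47, adjusted p = 0.88). This sign was not particular to the basal list (median 0.98). All 8 fibroblast markers (median 0.42) and all 6 endothelial markers (median 0.37) also had a positive difference, with 0 past the threshold. For luminal markers (6 of 6) the non-metastatic tumours averaged -0.11 to 0.10, the metastatic tumours -0.17 to 0.97 and the normal glands -1.42 to 0.06, the lowest being normal gland 2. Krt18, a luminal keratin, rose by 1.27 over both tumour groups (SE 0.37, adjusted p = 0.041), but without normal gland 2 the difference was 0.74 and did not pass (adjusted p = 0.079). The median of the luminal list was 0.97 with that array and 0.21 without it, and its genes past the threshold were 2 and 1. The part of cell types in the Snai2 and Cdh2 differences was not tested.

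The genes whose profiles were most like those of 7 of these genes were found by the root mean square difference of gene-centred log2 values over the 9 arrays. Nearest to Zeb1 were S1pr1 (0.14), Kdr (0.16) and Runx1t1 (0.18), of which Kdr is an endothelial receptor and is also on the endothelial marker list. Nearest to Twist1 were Slco2b1 (0.13), Runx1t1 (0.16) and Tacc1 (0.17), and nearest to Prrx1 were Ptprm (0.12), Maf (0.16) and Lrp1 (0.16). For Vim they were Pcolce (0.11), a collagen-processing enhancer, Axl (0.15), a receptor tyrosine kinase, and Tacc1 (0.18). Cdh1 lay nearest to Rps13 (0.10), Npm1 (0.12) and Bri3bp (0.13), Cdh2 to Mycl (0.17), Vegfc (0.18) and Tcea3 (0.19), and Snai2 to Tril (0.30), Crispld1 (0.33) and Myl9 (0.36).

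Within the 6 tumours, Cdh1 was compared with each of the other 8 genes. Pearson's r ran from -0.67 for Twist2 (exact permutation p = 0.19, rho -0.20, exact permutation p = 0.70) to 0.54 for Snai2 (exact permutation p = 0.33, rho 0.26, exact permutation p = 0.59). For Zeb1 r was 0.49 (exact permutation p = 0.31, rho 0.28, exact permutation p = 0.57) and for Cdh2 0.32 (exact permutation p = 0.52, rho 0.03, exact permutation p = 0.98). Adjusted over the 8 relations, the exact permutation p of r was 0.62 for each. Non-metastatic tumour 3 lay farthest from the median of Cdh1, and non-metastatic tumour 1 and metastatic tumour 2 were equally far as the second. Without non-metastatic tumours 3 and 1, r was -0.29 for Twist2, 0.35 for Snai2, -0.18 for Zeb1 and 0.41 for Cdh2. Without non-metastatic tumour 3 and metastatic tumour 2 it was -0.47, 0.92, 0.90 and 0.96 in the same order, over 4 tumours, so these values rest on single arrays. With each gene taken as the mean of its probe sets, r turned to -0.15 for Zeb1, -0.023 for Snai2 and -0.47 for Cdh2. Groups of 3 were too small for values within each tumour group. Cdh1 ranged from 11.53 to 11.73 over these tumours, which limits what such a comparison can detect.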

How the data were processed

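The deposited values are log2 expression per probe set, made by the authors with RMA (background correction, quantile normalisation and summary over probes), per the submitters' processing notes. The software version and genome build are not given in the sources used here. Of 41345 probe sets, 23521 were paired with a single gene symbol by the platform annotation, 1814 with several and 16010 were not listed. The probe set with the highest mean stood for a gene. Genes above the 30th percentile of the array on at least 3 arrays were tested (17478). A mean per group was fitted over all 9 arrays in limma 3.58.1 (R 4.3.3; 6 residual degrees of freedom, moderated SE), with Benjamini-Hochberg adjustment over all genes tested. The scripts were tested on simulated data. The number of arrays, 3 per group, limits the precision.

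The genes and lists were chosen with earlier results of these data known. Named from each pathway list are up to 4 genes with the largest change, among those past the threshold against normal gland and among all genes tested between the tumour groups. From marker lists fewer are named, and Cdh3 against normal gland, Itgb1, Fbxw7 and the markers given without normal gland 2 were chosen after their values were seen. Likeness was computed for genes with an SD of at least 0.5. Replicate numbers name different mice and pair nothing. Alternatives covered filters, probe set choice, normalisation, weights, samples in the fit, a replicate block, age and each array left out.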

Additional observations from a re-analysis of the deposited data

How the results depend on the processing

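Among the alternatives of the results by gene, 609 kept the direction and the side of the threshold, 28 lost the call, 16 gained it and 27 changed sign. Between the tumour groups the count of the 9 genes past the threshold was 0 with each array left out. With arrays left out in turn, the count ran from 2 to 6 in non-metastatic tumours against normal gland, from 1 to 4 in metastatic tumours and from 3 to 6 over both. With array weights 7 genes passed in metastatic tumours (Twist2, Prrx1, Cdh2 and Vim gained), and with the replicate number as a block 1 did. The block left 3 in non-metastatic tumours (Prrx1 lost) and 4 over both groups (Prrx1 lost, Twist2 gained). Deviations of same-numbered arrays correlated at -0.28 to 0.17 over 9 pairs, so the numbers are not pairs. Signs turned for differences and correlations that did not pass the threshold. Cdh1 between the tumour groups was 0.0053 with quantile normalisation, 0.012 with array weights and -0.043 to 0.057 with arrays left out. For Snai1 in non-metastatic tumours the values were 0.076 (quantile), 0.073 (median centring), 0.039 (weights) and -0.068 to 0.031 with arrays left out, and over both groups 0.029 (quantile), 0.032 (median centring) and -0.085 to 0.0051. Snai2 over both groups was -0.031 (quantile), -0.43 (weights) and -0.40 to 0.43. With arrays left out, between the tumour groups Snai1 ran from -0.13 to 0.050, Twist2 from -0.17 to 0.092 and Vim from -0.018 to 0.66. In metastatic tumours Snai1 ran from -0.15 to 0.030, and over both groups Cdh2 from -0.025 to 0.34. With the mean of probe sets, r with Cdh1 was -0.15 (Zeb1), -0.023 (Snai2), -0.37 (Twist1), -0.41 (Prrx1), -0.47 (Cdh2) and -0.43 (Vim), r with Snai1 was 0.13 after median centring, and r with Vim ran from -0.034 to 0.77 with a tumour left out. Over all genes, 3288 passed in non-metastatic tumours, 2332 in metastatic tumours and 3980 over both; in that order array weights gave 5360, 6498 and 7603, leaving out normal gland 1 gave 1345, 793 and 1991, and leaving out normal gland 2 gave 1514, 861 and 1897. The block gave 1299 in metastatic tumours, a fit of only the compared groups 1533 in non-metastatic tumours, and leaving out non-metastatic tumour 2 1524 there. Leaving out metastatic tumour 1, 2 or 3 gave 627, 1068 and 639 in metastatic tumours. Between the tumour groups 1 gene passed, and 40 without non-metastatic tumour 3. The use of the other probe set, and of each equally far tumour in the correlations, was chosen after seeing the data. The causes were not tested.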
